A study of Mus musculus with 8 samples.

Results

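Neurotransmitter receptor genes encode the ligand-gated ion channels and G protein-coupled receptors for GABA, glutamate, glycine, acetylcholine, serotonin, noradrenaline, adrenaline and dopamine. The 98 genes described here were selected by symbol from 21887 RefSeq protein-coding genes of the mouse, in 12 families. A gene was called marked when a peak of H2AK119ub, histone H2A carrying a ubiquitin on its tail, overlapped 2000 bp on either side of its start or end. In the control peak list 27 of the 98 genes were marked (27.6%, 95% Wilson interval 19.7 to 37.1), and in the Eed cKO list 14 of 98 (14.3%, 8.70 to 22.6). The background over all protein-coding genes was 11.7% in control and 7.4% in Eed cKO.

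The mark is placed by Polycomb repressive complex 1 (PRC1), and the companion complex PRC2, of which EED is a core subunit, methylates histone H3. Together these complexes are known to hold genes of other lineages silent, neuronal genes among them. Ligand-gated receptors open an ion pore directly. G protein-coupled receptors act through second messengers. GABA-A and glycine receptors carry chloride and inhibit, whereas ionotropic glutamate and nicotinic receptors carry cations and excite. Most of these genes are known for their work at synapses, but keratinocytes also carry some of these receptors, such as the β-adrenergic and nicotinic receptors.

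The mark was mapped by ChIP-seq, sequencing of DNA bound to immunoprecipitated chromatin, in epidermal progenitors sorted from back skin of newborn mice (postnatal day 0). The libraries used here were 2 of genotype Control and 2 of genotype Eed-/-, titled Eed cKO (conditional knockout), each pair represented by 1 deposited peak list. A further genotype, Ring1a-/- Ring1b-/-, and 3 inputs were not analysed here. The sources used here do not give the driver of the knockout, the animals behind each library or the sex of the mice. The control list held 4621 peaks and the Eed cKO list 2541, with positions alone and no height or score, so read depth is unknown. Each genotype had 1 list, so the spread between replicates is unknown and no test between genotypes was possible. A missing peak can reflect less mark, fewer reads or another call threshold, and these cannot be told apart. Intervals cover counting error only. Peak positions do not measure expression. Of the 6 basal keratinocyte markers Krt5, Krt14, Trp63, Itga6, Itgb4 and Col17a1, 0 were marked in either list, as were 0 of 4 leukocyte markers, counts too small to set against the background. In control and Eed cKO respectively, 5 and 5 of 6 Merkel cell markers were marked, 2 and 1 of 4 suprabasal, 2 and 0 of 6 melanocyte, 2 and 1 of 4 fibroblast and 3 and 2 of 5 peripheral neuron and glia markers.

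Of the 27 control-marked receptor genes 11 were also marked in Eed cKO (40.7%, 24.5 to 59.3), where the background over all control-marked genes was 49.0%. The 11 genes were Grin1, Grin2c, Grin2d, Grik3, Grid1, Grm4, Chrm4, Chrnd, Htr6, Adra1a and Adra2b. A further 16 were marked in control alone (background 5.94% of all genes) and 3, Gabrd, Chrnb1 and Chrnb2, in Eed cKO alone (background 1.7%). The remaining 68 genes had no peak at an end in either list. Grin2d was counted in both lists although its peaks lay at opposite ends of the gene and did not overlap. Requiring the Eed cKO peak to overlap the control peak itself left 10 of 27 genes (37.0%, 21.5 to 55.8), against 50.9% of all control-marked genes.

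**Figure D1:**
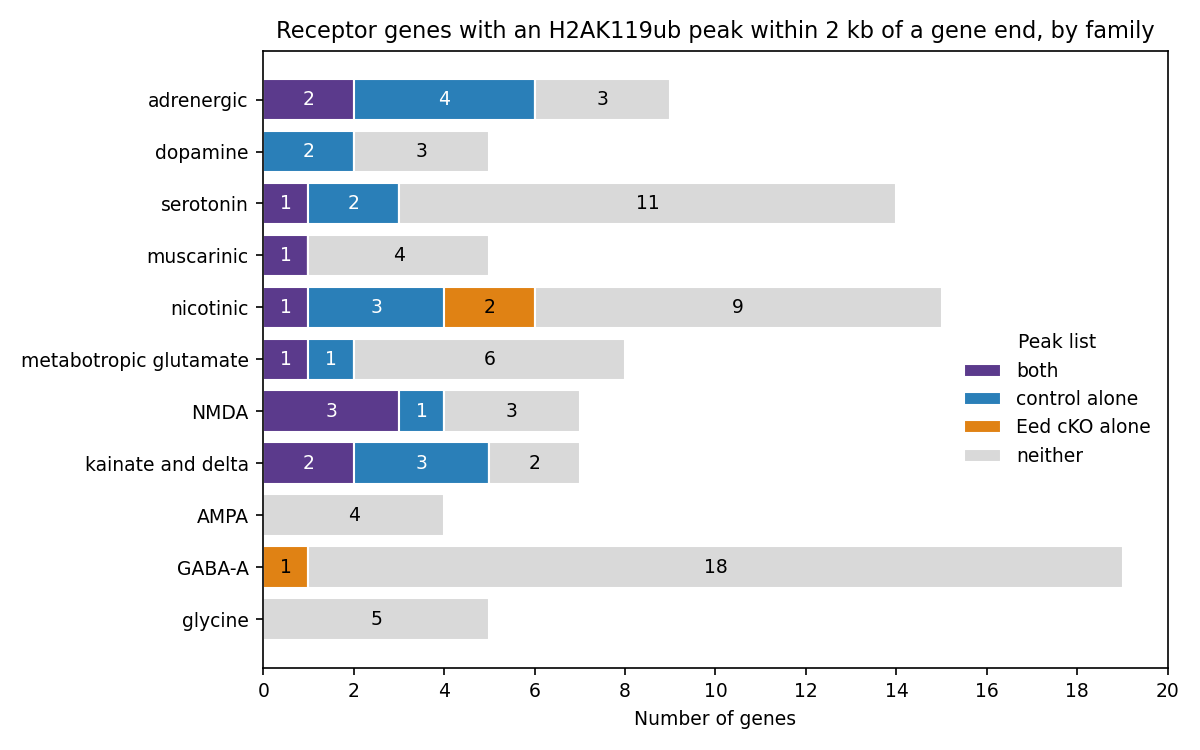
Number of receptor genes in each family, with kainate and delta glutamate receptor genes in 1 bar, coloured by the list that marked them: both lists, control alone, Eed cKO alone or neither. The adrenergic bar is coloured for 6 of its 9 genes, whereas the 4 AMPA and 5 glycine receptor genes are all grey and the GABA-A bar of 19 genes is coloured for Gabrd alone.

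Promoter sequences are shown for genes that stand for each outcome, to make the CpG density of the marked classes visible. Each is the RefSeq window of 300 bases around the transcription start, from 250 before to 50 after it, read 5′ to 3′ on the gene's strand in GRCm38.p6 (mm10), with every CpG in capitals. Grin2c (chr11:115267194-115267493, minus strand, 22 CpG) and Grik3 (chr4:125490446-125490745, plus strand, 50 CpG) lay inside a peak of both lists. Adra2a (chr19:54045009-54045308, plus strand, 28 CpG) and Drd4 (chr7:141291768-141292067, plus strand, 15 CpG) lay inside a peak of the control list alone. Chrnb2 (chr3:89764583-89764882, minus strand, 12 CpG) lay inside a peak of the Eed cKO list alone. Gabra2 (chr5:71095800-71096099, minus strand, 25 CpG), an unmarked gene of the GABA-A family, is the alphabetically first with an entry. Over all protein-coding genes with an entry the median was 13 CpG per window.
Grin2c: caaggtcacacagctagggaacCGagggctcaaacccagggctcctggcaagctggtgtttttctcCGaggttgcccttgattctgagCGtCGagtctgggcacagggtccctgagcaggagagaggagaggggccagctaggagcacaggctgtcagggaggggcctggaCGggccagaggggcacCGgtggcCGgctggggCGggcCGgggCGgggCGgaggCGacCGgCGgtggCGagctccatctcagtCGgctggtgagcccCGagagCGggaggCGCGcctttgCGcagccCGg
Grik3: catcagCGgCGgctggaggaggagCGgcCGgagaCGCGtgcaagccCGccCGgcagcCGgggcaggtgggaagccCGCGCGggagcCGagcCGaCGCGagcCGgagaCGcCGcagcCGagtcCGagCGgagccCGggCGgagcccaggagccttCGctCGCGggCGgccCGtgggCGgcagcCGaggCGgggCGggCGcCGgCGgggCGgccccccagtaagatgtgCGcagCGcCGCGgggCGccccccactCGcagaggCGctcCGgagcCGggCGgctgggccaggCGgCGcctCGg
Adra2a: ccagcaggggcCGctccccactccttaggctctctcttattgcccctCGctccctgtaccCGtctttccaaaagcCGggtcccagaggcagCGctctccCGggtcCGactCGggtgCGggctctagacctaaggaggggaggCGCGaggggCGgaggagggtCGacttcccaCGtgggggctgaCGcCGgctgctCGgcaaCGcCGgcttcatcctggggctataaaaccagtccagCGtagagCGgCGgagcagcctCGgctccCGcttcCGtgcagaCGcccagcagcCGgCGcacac
Drd4: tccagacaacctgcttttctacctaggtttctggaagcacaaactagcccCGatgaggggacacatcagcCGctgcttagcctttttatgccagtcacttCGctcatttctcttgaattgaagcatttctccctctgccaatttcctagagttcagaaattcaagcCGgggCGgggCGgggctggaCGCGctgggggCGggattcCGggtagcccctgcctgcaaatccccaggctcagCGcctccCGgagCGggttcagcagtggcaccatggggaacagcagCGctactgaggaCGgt
Chrnb2: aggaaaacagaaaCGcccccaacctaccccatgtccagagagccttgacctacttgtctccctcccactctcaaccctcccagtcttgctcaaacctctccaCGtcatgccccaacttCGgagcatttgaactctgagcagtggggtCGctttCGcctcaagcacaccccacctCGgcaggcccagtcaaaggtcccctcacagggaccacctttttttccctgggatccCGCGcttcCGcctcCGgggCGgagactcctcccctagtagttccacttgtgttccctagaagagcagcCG
Gabra2: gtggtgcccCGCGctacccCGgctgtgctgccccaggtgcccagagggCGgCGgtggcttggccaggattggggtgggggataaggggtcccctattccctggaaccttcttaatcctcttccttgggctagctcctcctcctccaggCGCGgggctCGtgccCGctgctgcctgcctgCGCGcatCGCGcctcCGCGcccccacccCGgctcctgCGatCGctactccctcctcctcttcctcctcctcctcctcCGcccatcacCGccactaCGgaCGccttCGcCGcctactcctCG
Grik3 was the densest of these windows and Chrnb2 the sparsest, while the unmarked Gabra2 held more CpG than the marked Drd4.

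Of 18 ionotropic glutamate receptor genes the control list marked 9 and the Eed cKO list 5. All 4 genes of the AMPA receptors, which carry most fast excitation in the brain (Gria1 to Gria4), were unmarked in both lists (0%, 0 to 49.0 in control). This interval overlapped those of the NMDA genes (57.1%, 25.0 to 84.2) and the kainate genes (60.0%, 23.1 to 88.2). The AMPA genes' distance to the nearest control peak had a median of 3086 kb, compared with 167 kb for all protein-coding genes.

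In control 4 of the 7 NMDA receptor genes carried a peak, and in Eed cKO 3 did. Grin1, the obligatory NMDA subunit, had a 4.27 kb control peak over its start, of which a 4.65 kb Eed cKO peak covered 83.4%. Grin2c, a subunit known from cerebellar granule cells, carried the widest receptor peak of both lists. The control peak measured 14.7 kb (chr11:115256613-115271305) and lay wholly inside a 20.1 kb Eed cKO peak (chr11:115256311-115276452). That peak also lay at Fdxr, and further peaks of 4.82 kb (control) and 4.83 kb (Eed cKO) lay at the end of Grin2c, shared with Tmem104. Grin2d had a 5.23 kb control peak at its end, shared with Grwd1, and a 2.44 kb Eed cKO peak at the opposite end, shared with Kdelr1. Grin3b, a glycine-binding NMDA subunit, had a 3.18 kb peak in control alone, shared with Wdr18. The unmarked Grin2a, Grin2b and Grin3a were the 3 longest genes of the class, from 184 to 460 kb.

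Among the 5 kainate receptor genes Grik1, Grik3 and Grik4 were marked in control and Grik3 in both lists. At Grik3 a 13.0 kb control peak over the start (chr4:125485756-125498706) lay wholly inside a 16.0 kb Eed cKO peak (chr4:125483251-125499293). Grik1 had a 4.22 kb peak and Grik4 a 2.02 kb peak at an end in control alone. Inside the span of Grik4, far from its ends, a 6.78 kb control peak lay whole inside an 8.13 kb Eed cKO peak, and a 4.39 kb control peak met no Eed cKO peak. Grik2 and Grik5 were unmarked. Grid1, which encodes a delta receptor that bridges synapses rather than conducting on glutamate, had a 7.45 kb control peak (chr14:34816045-34823489), of which an 8.58 kb Eed cKO peak (chr14:34816053-34824636) covered 99.9%.

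Metabotropic glutamate receptor genes encode G protein-coupled receptors. The control list marked 2 of the 8 (25.0%, 7.15 to 59.1) and the Eed cKO list 1 (12.5%, 2.24 to 47.1). The background of 11.7% in control and 7.4% in Eed cKO lay inside these intervals. Grm4, a presynaptic receptor, was the gene with the most control peaks, 4, and it had 2 Eed cKO peaks. An 11.3 kb control peak (chr17:27513687-27524961) lay inside an 11.9 kb Eed cKO peak (chr17:27513040-27524961) with the same right edge. Both lay almost wholly outside Grm4, with 1.24% of the control peak and 6.60% of the Eed cKO peak within the gene. Next to these and inside the gene, control peaks of 2.76 and 8.35 kb were spanned by a 14.3 kb Eed cKO peak (chr17:27498167-27512509). That peak covered 96.8% of the first and all of the second. An 8.92 kb control peak deeper in the gene met no Eed cKO peak. Grm6, the receptor of retinal ON bipolar cells, had a 5.22 kb control peak over its start and no Eed cKO peak. Grm5 had a 3.11 kb control peak inside its span, and Grm2, Grm3, Grm7 and Grm8 had no peak in either list within the gene or 2 kb of it.

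GABA-A receptor genes made up the largest family and 0 of 19 were marked in control, where a count of 0 allows a share of up to 15.8%, a limit above the background of 11.7%. Gabrd, which encodes the δ subunit of receptors outside the synapse, had a 3.75 kb peak in Eed cKO alone (chr4:155395288-155399035). The nearest control peak lay 2566 bp from an end of Gabrd. Of the 5 glycine receptor genes, Glra1 to Glra4 and Glrb, 0 had a peak in either list. The unmarked GABA-A genes included Gabra2, Gabra4, Gabrb1, Gabrg1, Gabre, Gabra3, Gabrq, Gabrp and Gabrr1 to Gabrr3, and none of these had a peak inside its span.

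Many GABA-A genes lie in clusters, and the clusters on chromosomes 5 and X stood far from any peak. The cluster of Gabrg1, Gabra2, Gabra4 and Gabrb1 (chr5:70751047-72149572) lay 1498 kb from the nearest control peak and 2915 kb from the nearest Eed cKO peak. On the X chromosome Gabre, Gabra3 and Gabrq (chrX:72256926-72842607) lay 1210 kb and 723 kb away. Genes of a cluster share their surroundings, so their unmarked state is not that of as many separate loci. The 7 receptor genes on the X chromosome were unmarked in both lists, with a background on that chromosome of 2.07% in control and 0.621% in Eed cKO.

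**Figure D2:**
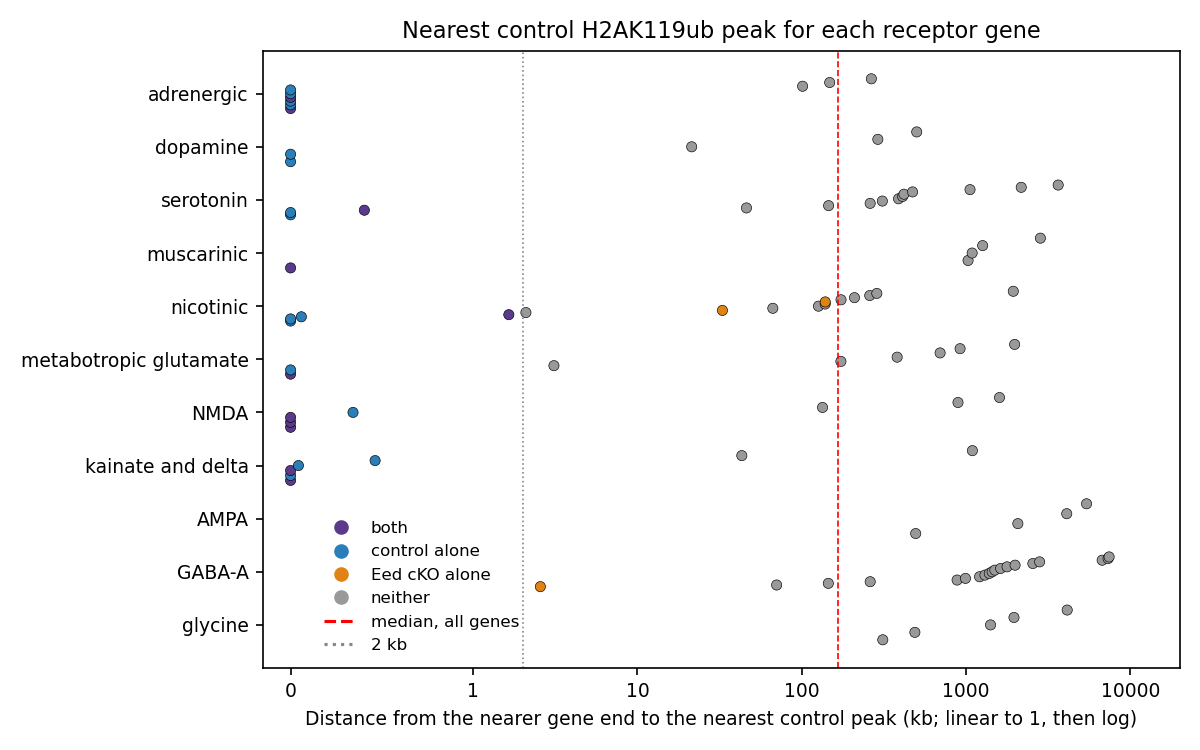
Distance in kb from the nearer end of each receptor gene to the nearest control H2AK119ub peak (linear to 1 kb, then log scale), by family, with points coloured by the list that marked the gene, the 2 kb limit dotted and the median of all protein-coding genes, 167 kb, dashed. Most GABA-A genes, all 4 AMPA genes and all 5 glycine genes lie to the right of the dashed line, while 6 of 9 adrenergic genes lie at 0.

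Of 15 nicotinic acetylcholine receptor genes the control list marked 4 and the Eed cKO list 3, with Chrnd in both. Chrna5, Chrna3 and Chrnb4, whose products form the receptor of autonomic ganglia, lie side by side (chr9:54980827-55048953). This 68.1 kb cluster met 4 control peaks and 0 Eed cKO peaks, and the nearest Eed cKO peak lay 487 kb away. Chrna5 had peaks of 5.94 kb over its start and 2.12 kb inside its span, Chrna3 and Chrnb4 shared a peak of 4.15 kb, and a 2.17 kb peak covered the start of Chrnb4. All 3 cluster genes were thus marked in control alone, but they share their surroundings and do not stand for as many separate loci. With the peaks at or above the median width, Chrna3 and Chrnb4 were unmarked.

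The muscle receptor genes showed other outcomes. Chrnd, the δ subunit, was marked in both lists by peaks of 7.70 kb (chr1:87181245-87188948) and 8.00 kb (chr1:87181768-87189771) that also lay at Prss56. These peaks ended 1649 bp and 826 bp short of Chrnd, so its call in control was lost with a window of 1000 bp. Chrnb1, the β subunit, was marked in Eed cKO alone by an 11.3 kb peak (chr11:69796218-69807505) that lay 252 bp upstream of the gene and also lay at Fgf11 and Tmem102. Chrna1, the α subunit, was unmarked, with a control peak 2095 bp from the gene, the nearest outside the 2000 bp limit. Chrnb2, the common β partner in brain receptors, had a 2.56 kb peak over its start in Eed cKO alone (chr3:89763166-89765720), and no control peak lay there. Chrna2, Chrna4, Chrna6, Chrna7, Chrna9, Chrna10, Chrnb3 and Chrne were unmarked. Of the muscarinic genes Chrm4 alone was marked, by a 6.64 kb control peak (chr2:91927574-91934211) inside an 8.51 kb Eed cKO peak (chr2:91926172-91934682). Both lay over the end of Chrm4, away from its start, and also at Dgkz and Mdk. Chrm1, Chrm2, Chrm3 and Chrm5 were unmarked.

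Adrenergic receptors bind noradrenaline and adrenaline. The control list marked 6 of their 9 genes (66.7%, 35.4 to 87.9), and the Eed cKO list 2 (22.2%, 6.32 to 54.7). All 3 α2 genes, whose receptors inhibit transmitter release, were marked in control. Adra2a had a 7.70 kb control peak that covered the whole gene (chr19:54042554-54050257) and no Eed cKO peak. At Adra2b a 5.59 kb Eed cKO peak covered 64.3% of a 5.83 kb control peak, and Adra2c had a 3.34 kb peak in control alone.

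Of the α1 genes, known for contraction of smooth muscle, Adra1a and Adra1d were marked. Adra1a had a 4.42 kb control peak and a 4.15 kb Eed cKO peak that lay wholly inside it. Adra1d had control peaks at both ends, of 7.82 kb (chr2:131556460-131564282) and 3.27 kb, and in Eed cKO a 2.36 kb peak inside the gene that met neither. Among the β genes Adrb3, the receptor of fat cells, had a 6.21 kb peak in control alone (chr8:27223536-27229747), shared with Got1l1. Adrb1, a β receptor known from the heart, and Adra1b were unmarked in both lists.

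Of the 5 dopamine receptor genes the control list marked 2 (40.0%, 11.8 to 76.9; background 11.7%) and the Eed cKO list 0 (0 to 43.4; background 7.4%). Drd4 had a 7.55 kb control peak over the whole gene (chr7:141290940-141298492), shared with Deaf1, and Drd5 a 2.97 kb peak. Drd2 was unmarked at its ends but held a 2.71 kb control peak inside its span, of which a 2.88 kb Eed cKO peak covered 96.2%. Drd1 and Drd3 had no peak.

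Of the 14 serotonin receptor genes the control list marked 3 (21.4%, 7.57 to 47.6) and the Eed cKO list 1 (7.14%, 1.27 to 31.5). The background of 11.7% in control and 7.4% in Eed cKO lay inside these intervals. Htr6, which raises cyclic AMP, had a 7.06 kb control peak (chr4:139068104-139075166) and a 4.78 kb Eed cKO peak (chr4:139072083-139076857) that covered 43.7% of it and reached past the start, which the control peak stopped short of. Htr7, a receptor that also raises cyclic AMP, had a 6.98 kb control peak over its start (chr19:36053173-36060151) and no Eed cKO peak, and Htr1d had a 3.58 kb peak in control alone. The 2 channel subunits, Htr3a and Htr3b, were unmarked, as were Htr1a, Htr1b, Htr1f, Htr2a, Htr2b, Htr2c, Htr4, Htr5a and Htr5b.

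Over all families, 59 genes encode channel subunits, of which the control list marked 13 (22.0%, 13.4 to 34.1) and the Eed cKO list 9 (15.3%, 8.24 to 26.5). Of the 39 genes for G protein-coupled receptors they marked 14 (35.9%, 22.7 to 51.6) and 5 (12.8%, 5.60 to 26.7). The intervals of the 2 kinds overlapped in both lists. The 3 genes marked in Eed cKO alone were among the 59 channel genes (5.08%, 1.74 to 13.9, background 1.7%). Of the 39 G protein-coupled receptor genes 0 were (0 to 8.97), and these intervals overlapped too.

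**Figure D3:**
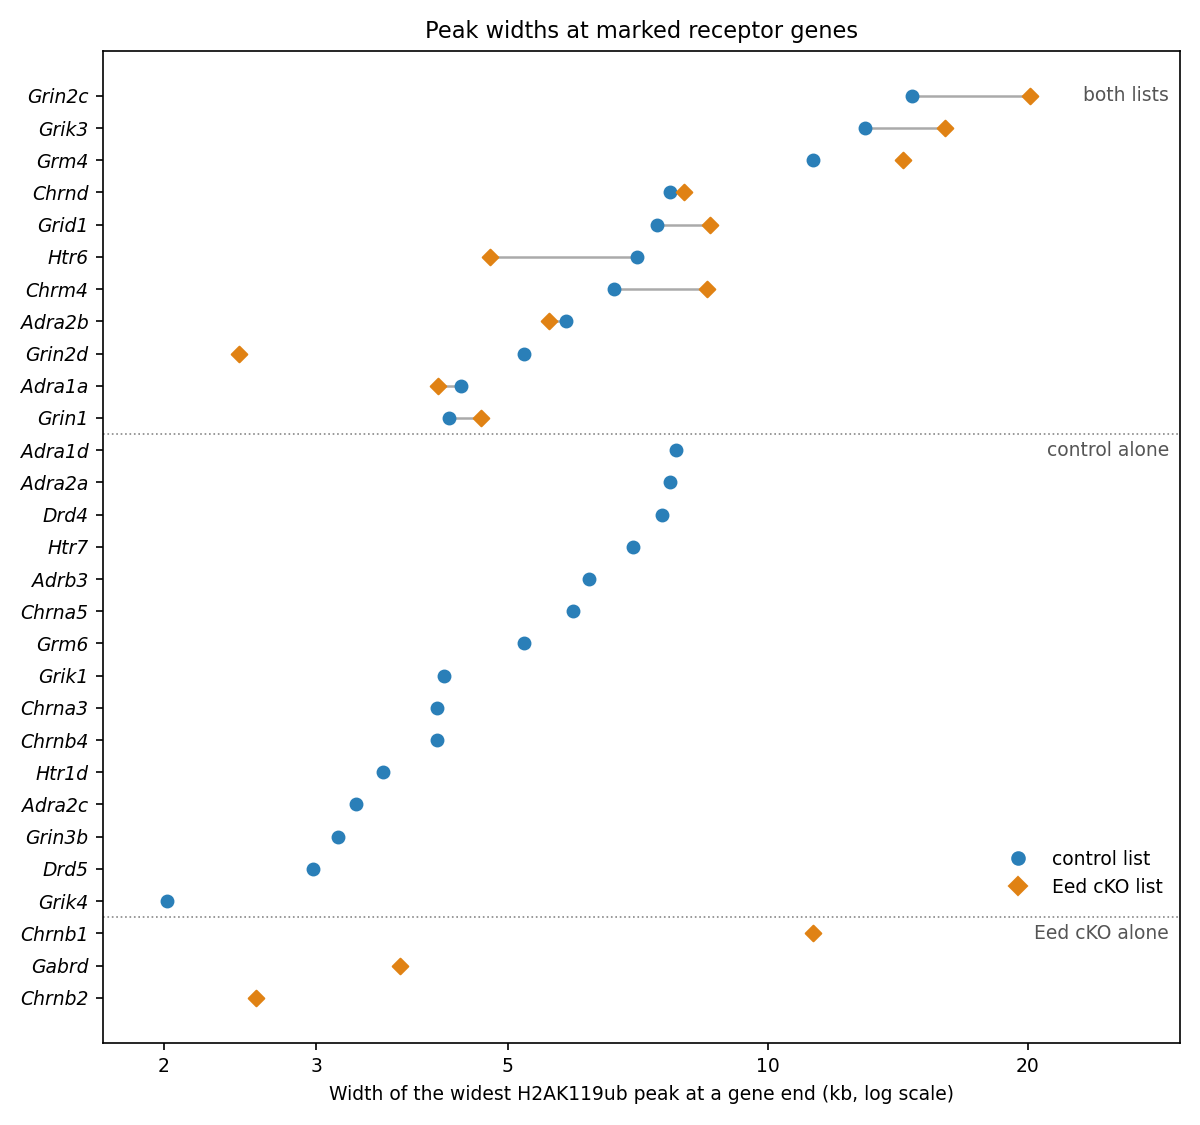
Width in kb (log scale) of the widest H2AK119ub peak at an end of 29 marked receptor genes, with control as circles and Eed cKO as diamonds, joined where the 2 peaks overlap. Grin2c, Grik3 and Grm4 stand apart above 10 kb in both lists, and the genes of control alone run from 2.02 kb at Grik4 to 7.82 kb at Adra1d. The points of Grm4 are not joined, although its widest control peak lies inside another, narrower Eed cKO peak.

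The 30 distinct control peaks at receptor gene ends had a median of 5.22 kb and ranged from 2.02 to 14.7 kb, compared with a median of 5.44 kb for all 2265 control peaks at gene ends. Of the 30 peaks 3 (10.0%) were wider than 10 kb, against 19.6% of all. The 16 Eed cKO peaks had a median of 6.80 kb, compared with 6.16 kb for all 1354. Of the 30 control peaks 12 (40.0%) met an Eed cKO peak, against 45.9% of all. Those 12 had a median width of 6.85 kb and the other 18 of 4.54 kb, and over all gene-end peaks the medians were 6.99 and 4.38 kb. The 3 receptor peaks wider than 10 kb, at Grin2c, Grik3 and Grm4, all met an Eed cKO peak. The matching share of all 443 control gene-end peaks wider than 10 kb was not counted, so whether this is particular to receptor peaks is unknown.

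Where 1 control peak at a receptor gene met 1 Eed cKO peak and no other, 11 pairs in all, the Eed cKO peak was the wider in 8 (72.7%). The ratio of Eed cKO to control width had a median of 1.06 and ran from 0.676 at Htr6 to 1.37 at Grin2c. Over all 869 such pairs at gene ends 47.5% were wider in Eed cKO, with a median ratio of 0.983. The 11 receptor pairs are few, and their difference from this share was not tested. Grin2c gave more than 1 of them, and the 8 include its pair of 4.82 kb (control) and 4.83 kb (Eed cKO), with a ratio of 1.001. Peak edges depend on read depth, which is unknown, and the part of depth in these ratios was not tested.

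Counted anywhere in the gene span or within 2000 bp of it, 29 receptor genes held a control peak (29.6%, background 13.7%) and 17 an Eed cKO peak (17.3%, background 8.83%). The genes this added were Drd2 and Grm5 in control, and Drd2, Grik4 and Adra1d in Eed cKO.

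Peaks near the transcription start were counted among marked genes, which by definition had a peak at a start or an end. Strand and start came from RefSeq promoter entries, which matched 70 of the 98 receptor genes and 17492 of all genes. Of 19 control-marked receptor genes with an entry, 17 (89.5%) had a peak within 2000 bp of the start, where the background over control-marked genes was 81.0%. The exceptions were Chrm4 and Grin2d, both marked at the far end. Of the 17 genes 7 were also marked at the far end. In Eed cKO 7 of 9 (77.8%) were marked at the start, where the background was 76.8%. Of the 30 control peaks 21 (70.0%) lay at the ends of 1 gene alone, against 80.0% of all control peaks at gene ends. A peak shared with a neighbour, as at Grin2c, Chrm4 or Drd4, cannot be assigned to either gene from its position.

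**Figure D4:**
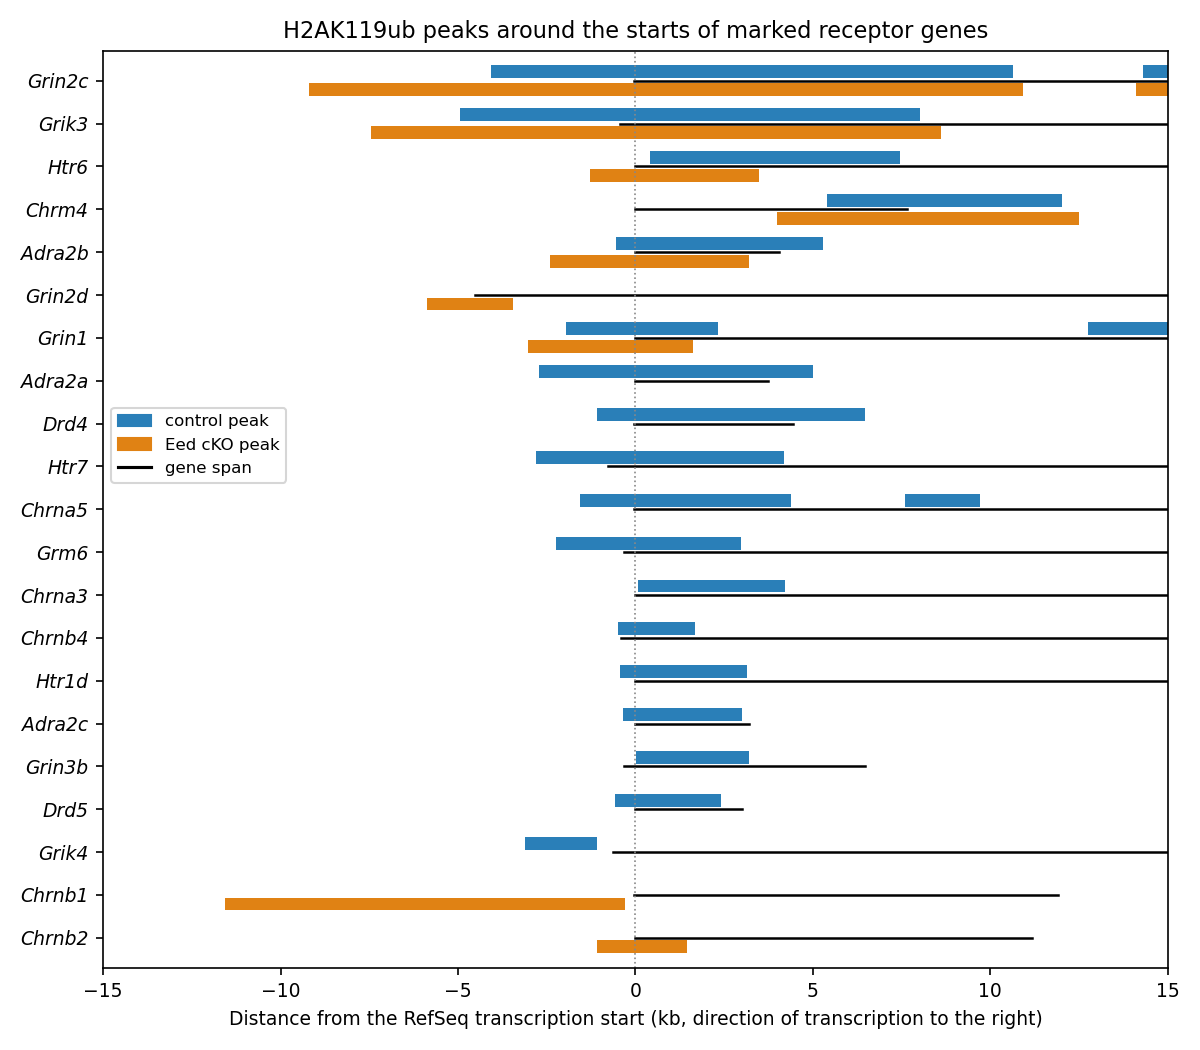
Position in kb of control peaks and Eed cKO peaks relative to the RefSeq transcription start of the 21 marked receptor genes with a promoter entry, each drawn in its direction of transcription with the gene span as a line, out to 15 kb. Control peaks sit over or beside the start at 17 of the 19 control-marked genes, and the Eed cKO peak of Htr6 is shifted toward the upstream side.

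The marked classes were also described by promoter composition. A promoter was called CpG-rich when its window had at least 50% GC and an observed over expected CpG ratio of at least 0.6. All 7 genes marked in both lists with an entry were CpG-rich, namely Grin1, Grin2c, Grin2d, Grik3, Chrm4, Htr6 and Adra2b, with a median ratio of 0.848. At Grin2d and Chrm4 neither list had a peak within 2000 bp of the start described. The median was the ratio of Grin2d, whose window held 12 CpG, against a median of 13 over all genes. Of the 12 genes marked in control alone 4 were CpG-rich, Adra2a, Drd5, Grik4 and Htr7, and the median ratio was 0.530. Over all genes the share was 62.9% of those marked in both lists and 59.3% of those marked in control alone. Unmarked receptor genes were CpG-rich in 17 of 49 cases (34.7%), among them Gabra2, Gabrb1, Gria2, Chrna4, Chrna7, Drd1 and Adrb1, compared with 43.6% of all unmarked genes. The classes hold few receptor genes and differences between them were not tested.

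Read the other way, 11 of the 29 receptor genes with a CpG-rich promoter had a control peak (37.9%, 22.7 to 56.0), where the background among CpG-rich promoters was 14.4%. In Eed cKO 8 of 29 were marked (27.6%, 14.7 to 45.7; background 9.51%). Of the 41 receptor genes with another promoter 8 had a control peak (19.5%, 10.2 to 34.0; background 7.77%) and 1, Chrnb2, an Eed cKO peak (2.44%, 0.432 to 12.6; background 4.8%).

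**Figure D5:**
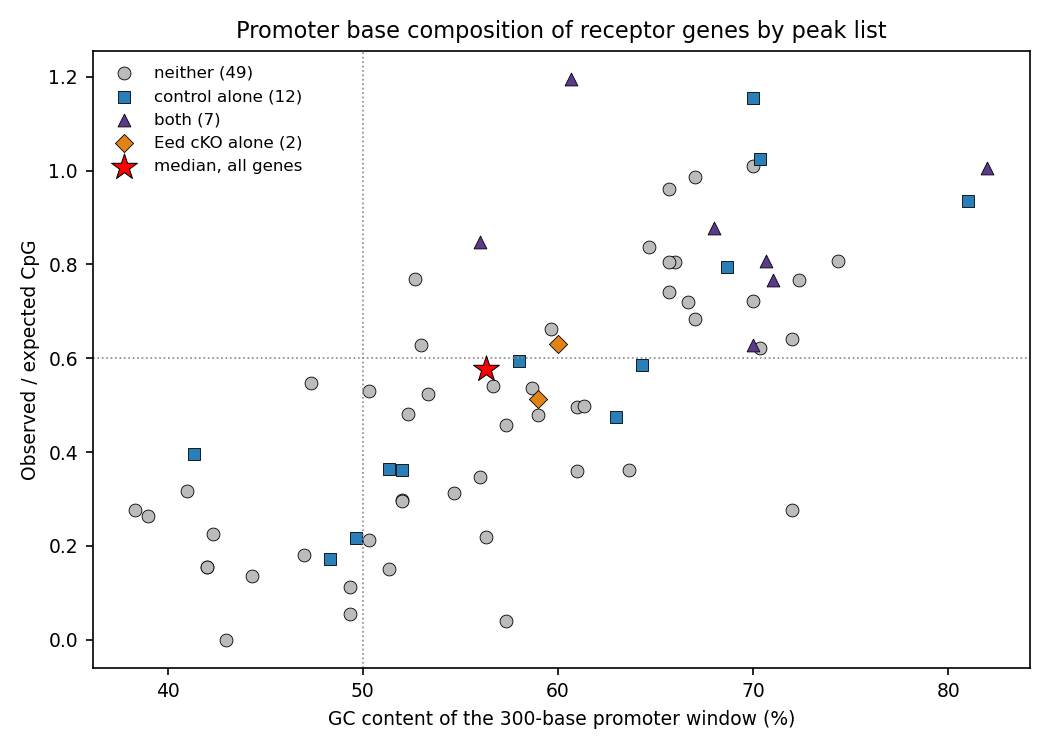
GC content (%) and observed over expected CpG of the 300-base promoter windows of 70 receptor genes, by the list that marked the gene, with the median of all genes as a star and the limits of 50% GC and 0.6 as dotted lines. The 7 triangles of genes marked in both lists all lie in the upper right field, whereas the 12 squares of control alone spread from 41.3% to 81.0% GC.

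Receptor genes are long, with a median span of 47.4 kb against 17.2 kb for all genes, and the unmarked members were the longer ones (71.0 kb, against 18.1 kb for control-marked members). Among genes of up to 8.74 kb, the shortest of 3 equal classes of all genes, 8 of 15 receptor genes (53.3%) were marked in control, compared with 10.7% of all genes in that class. In the middle class 10 of 31 (32.3%) were, also compared with 10.7%, and among genes over 31.2 kb 9 of 52 (17.3%), compared with 13.5%. The Eed cKO list marked 2 of 15 short genes (13.3%, against 7.77% of all), 7 of 31 middle genes (22.6%, against 7.69%) and 5 of 52 long genes (9.62%, against 6.74%). These counts are small, and the order of the classes was not tested in either list. The short marked genes included all 3 α2 adrenergic genes, Adrb3, Drd4 and Drd5. Of the 8 short control-marked genes 6 had a control peak that lay at both ends, whereas that of Grin3b lay at the start and that of Chrm4 at the end.

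Genes that make, move and anchor transmitters and their receptors formed a companion list of 68. The control list marked 28 of them (41.2%, background 11.7%) and the Eed cKO list 14 (20.6%, background 7.4%), with 13 in both. Genes of GABA synthesis and packaging were among those marked. Gad1, which makes GABA, had peaks of 12.1 kb (control) and 11.9 kb (Eed cKO), and Slc32a1, the vesicular GABA transporter, of 12.1 and 10.6 kb. Gad2 had an 11.1 kb peak in control alone. The GABA-B receptor gene Gabbr2 had peaks of 4.94 and 6.12 kb.

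Of 7 glutamate transporter genes Slc17a7 (12.7 and 13.2 kb) and Slc1a2 (8.46 and 4.46 kb) were marked in both lists and the other 5 in neither. Chat, which makes acetylcholine, and Slc18a3, which packages it and lies within the same locus, shared peaks of 3.73 and 6.64 kb. By group, the control list marked 4 and the Eed cKO list 3 of 7 vesicular transporter genes. For 13 plasma membrane transporter genes the counts were 5 and 3, for 10 synthesis enzyme genes 3 and 2, and for 30 genes of receptor anchors and auxiliary subunits 12 and 5. Among the breakdown enzyme genes Ache and Abat had a control peak and no Eed cKO peak. The AMPA receptor auxiliary subunit Cacng8 had the widest peaks of the list, 19.2 kb (control) and 13.4 kb (Eed cKO). The scaffold genes Shank1 (10.3 kb), Shank2 (3.82 kb) and Shank3 (2.00 kb) were marked in control alone.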

How the data were processed

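H2AK119ub ChIP-seq of epidermal progenitors was deposited as 1 peak list for control and 1 for Eed cKO, each from 2 libraries. The files hold positions, not levels: the authors deposited chromosome, start and end in mm10, per the file headers, and no score. The submitters' processing notes name Bowtie2 2.3.3.1 and SAMtools 1.9. How peaks were called, from which threshold, and how libraries and inputs entered is not given in the sources used here. Groups came from the labels.

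Starts were read as 0-based and are printed from 1. Genes were RefSeq protein-coding genes of GRCm38.p6 on chromosomes 1 to 19, X and Y, with windows of 2000 bp at both ends and an overlap of at least 1 bp. Strand, starts and promoter sequences came from RefSeq promoter entries, with the most upstream start used for a gene with several. The members and lists were chosen with earlier results of these data known. Marked members are named, except 1 that is not reported here by name, and some unmarked members and companion genes are left unnamed likewise. Positions are given for the 12 with the widest control peak, which include the 5 widest of control alone, and for those of Eed cKO alone. No test was run, since 1 list per genotype leaves no replicate error. Intervals printed with shares are 95% Wilson intervals, and some shares are printed without one. For the GABA-A and glycine genes the limit for a count of 0 is 3 counts, and other intervals for a count of 0 are Wilson intervals. The functions were tested on simulated data. Intervals used scipy 1.17.1, tables pandas 2.3.3 and numpy 2.4.6, and figures matplotlib 3.10.9, under Python 3.11.15.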

Additional observations from a re-analysis of the deposited data

How the results depend on the processing

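Alternatives were windows of 1000 and 5000 bp, the gene span with 2000 bp, the start alone, the peaks at or above the median width, a control list trimmed to the Eed cKO number, merging of peaks within 1000 bp, 500 bp of peak in the window and autosomes alone. For retention they also included any overlap and 50% coverage of the control peak, and for coverage Eed cKO peaks widened by 1000 bp. Of 66 values over the whole set of receptor genes, 62 stayed within 1.5 times the reported count, the interval of the reported share or the interquartile range of the reported peaks. With the start alone, over the 70 genes with a promoter entry and so fewer genes, 17 were marked in control (24.3%, against 9.36% of all genes) and 7 in Eed cKO (10.0%, against 5.70%). With the peaks at or above the median width, and so fewer peaks, 8 were marked in Eed cKO and 1 in Eed cKO alone, Chrnb1. The share of control-marked receptor genes also marked in Eed cKO ran from 29.4% (start alone, against 46.4% of all control-marked genes) to 50.0% (trimmed control list, against 55.7%). Of 216 family counts 195 stayed within 1.5 times. Some values in both tallies could not move. The receptor genes on the X chromosome were all unmarked, so autosomes alone repeated the main counts. Trimming the control list left the Eed cKO list as it was. A family without a marked gene could gain none from a narrower window or fewer peaks. With a window of 5000 bp Gabrd was marked in both lists and Chrna1 and Grm5 in control alone. No paired analysis was possible because the 2 libraries of a genotype were deposited as 1 list, and leaving out a library could not be run for the same reason. Read depth is unknown, so no limit of detection can be given for an unmarked gene.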

Other observations

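Chrng, the fetal γ subunit of the muscle acetylcholine receptor, falls outside the symbol rule and was added after its values were seen. It had no peak at an end in either list, and its nearest control and Eed cKO peaks lay 16863 and 16040 bp away. Those are the peaks that marked Chrnd, its neighbour on chromosome 1.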
